A study of Mus musculus with 15 samples.

Results

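Interleukin and interleukin receptor genes were followed across 15 mouse ovaries. The members were all rows of the expression table whose symbol begins with Il and a digit and whose mean over the 15 libraries was at least 3. Of 24656 genes in the table, 64 had such a symbol and 49 reached that mean. They comprise 12 ligands, 34 receptor chains, 2 soluble inhibitors and 1 enzyme, Il4i1, an amino acid oxidase that carries an interleukin-derived name. The last members inside the threshold were Il25 with a mean of 3.01, Il31ra with 3.26 and Il11ra2 with 4.31, and the first outside were Il17f with 2.98, Il6 with 2.50 and Il12a with 2.46. The rule reads symbols only, so cytokine genes without an Il symbol, such as Csf1 and Csf2ra, were not members.

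The mice were UM-HET3, a genetically heterogeneous stock bred by crossing several inbred strains. One group of 5 received canagliflozin, an inhibitor of the kidney glucose transporter SGLT2 given against diabetes, from 6 to 12 months of age. A second group of 5 were 12-month-old controls, and the other 5 mice were 6-month-old controls. Each library came from 1 whole ovary, and its polyadenylated RNA was sequenced; the dose is not given in the labels. The extraction protocol in the labels names the canagliflozin and 12-month groups only, so a difference in handling of the 6-month ovaries and a difference in age cannot be told apart. Values are the authors' normalised signal, in which the reads of each gene were divided by a size factor of the library. Recovered depth was 8.47 to 13.05 M reads in canagliflozin libraries, 11.31 to 13.11 M in 12-month controls and 11.75 to 13.63 M in 6-month controls. The tissue label was checked with marker lists. All 6 granulosa, 6 luteal and theca, and 7 oocyte markers were in the table and above the low-value filter.

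Interleukins are secreted proteins through which leukocytes, epithelia and stromal cells signal to each other. Most bind a private receptor chain paired with a shared one: the common gamma chain Il2rg for the IL-2, IL-7 and IL-15 group, Il6st (gp130) for the IL-6 and IL-11 group, and accessory chains of the IL-1 receptor family for IL-1, IL-18 and IL-33. The first 2 groups act through JAK kinases and STAT factors, and the IL-1 group through the adaptor MyD88. In the ovary, interleukins are studied for their part in ovulation, which resembles an inflammatory reaction, and in regression of the corpus luteum. In bulk tissue, fewer cells of a type and less RNA per cell cannot be told apart.

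Per length, the 4 highest members were receptor chains. To compare genes, values were divided by the exon length of the gene, and this scale is given as normalised signal per kb. Il10rb, the chain shared by receptors for IL-10 and IL-22, was highest at 442 ± 156 per kb (SD, n = 15). It was followed by Il6st at 188 ± 26.3 per kb, Il11ra1, the IL-11 receptor, at 167 ± 21.0 per kb, and Il4ra, a chain of the receptors for IL-4 and IL-13, at 159 ± 41.6 per kb. Among ligands Il18, a cytokine matured by inflammasomes, was highest at 113 ± 30.8 per kb. Il34, a ligand of the macrophage receptor Csf1r, followed at 64.8 ± 22.7 per kb and Il17d at 48.7 ± 14.7 per kb. The order is a coarse one. In all 33 pairs of neighbouring receptors the ranges over the 15 libraries overlapped, and so they did in 10 of 11 pairs of neighbouring ligands. The exception among ligands lay between Il17d, lowest at 27.1 per kb, and Il16, highest at 25.5 per kb. The inhibitors stood apart from each other, with Il18bp at 27.0 ± 4.71 per kb and Il1rn at 2.63 ± 1.93 per kb.

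The receptors called between ages and Il22ra1, described further on, had low levels. Il7r averaged 6.61 per kb, Il17re 2.97, Il22ra1 1.94 and Il18rap 1.76 per kb, and Il31ra was lowest of all members at 0.575 per kb. Il17rd, whose groups did not overlap between ages but which limma did not call, stood higher, at 18.5 per kb. Some members overlap other genes, and whether counting used the strand of the read is not given in the sources used here. Il4i1 overlaps Tbc1d17 on the opposite strand over 83.9% of its exon length, Il12rb2 overlaps Serbp1 over 40.0%, Il16 overlaps Stard5 over 15.3% and Il18bp overlaps Numa1 over 2.64%. Il10rb shares 14.9% of its exon length with the gene model Gm21970 on its own strand, and Il2rg shares 30.5% with Gm20489. Il11ra1 and Il11ra2 are near-identical copies. How reads were assigned where exons overlap is not known here. Il12rb2 averaged 5.11 over the 15 libraries, against 4262 for Serbp1, and Il4i1 averaged 14.7, against 761 for Tbc1d17.

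**Figure D1:**
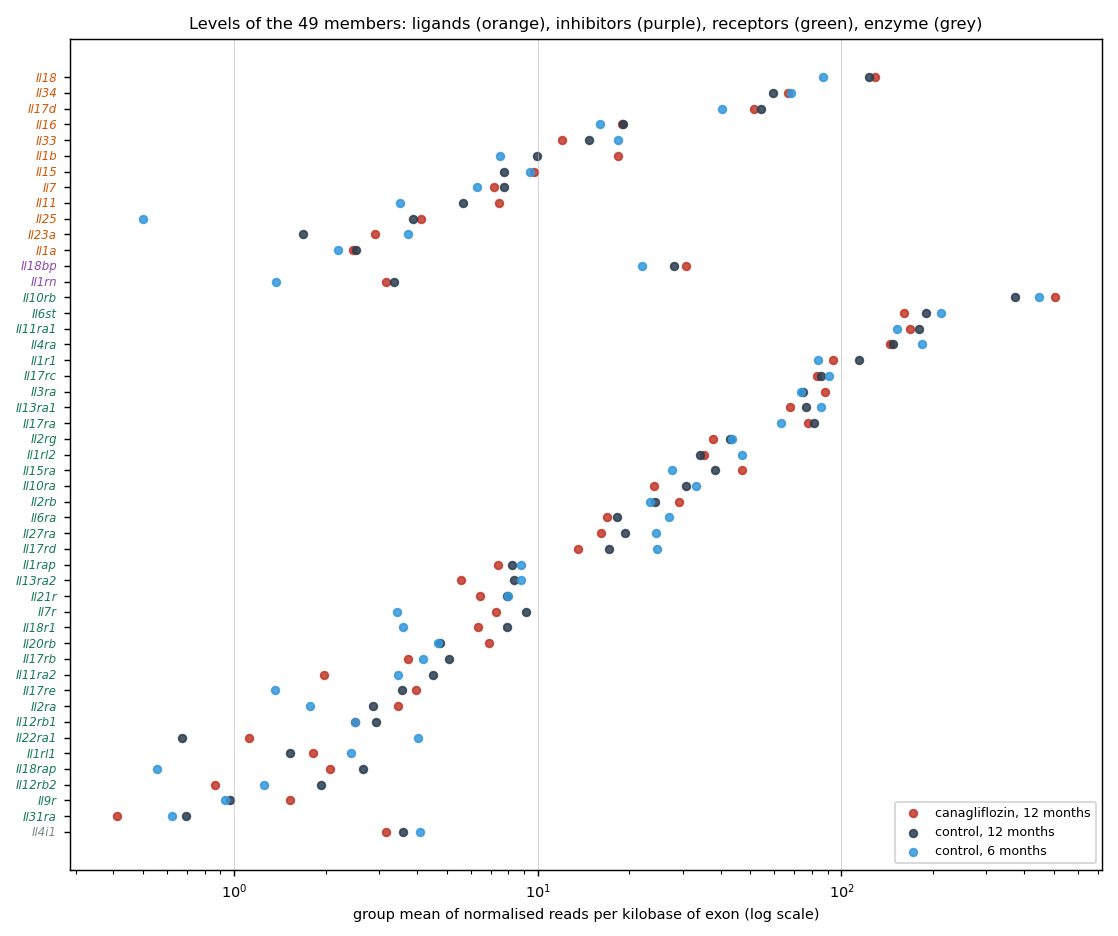
Levels of the 49 members in normalised signal per kb of exon (log axis), as means of canagliflozin, 12-month control and 6-month control libraries with ligands, inhibitors, receptors and the enzyme coloured apart. Over the 15 libraries Il10rb is highest with a mean of 442 per kb and Il31ra lowest at 0.575 per kb.

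The first comparison asks whether treatment altered these genes at 12 months. No member passed the test between canagliflozin and 12-month control ovaries. Of the 49 members, 41 passed the low-value filter (10 or more in no fewer than 5 libraries): 9 ligands, 29 receptors, both inhibitors and Il4i1. Tested by limma over 17569 genes with Benjamini-Hochberg adjustment, 0 of 41 were called, meaning an adjusted p under 0.05, where 0.00569% of all genes did (1 gene). Counts of members were also 0 with edgeR, which called 0.0512% of all genes, and with DESeq2, which called 0.336% and gave no adjusted p for 16 low members. At an unadjusted p under 0.05 there were 2 of 41 members, against 9.2% of all genes. The smallest adjusted p of a member was 0.473. Log2 differences ran from −0.64 for Il13ra2, a decoy receptor of IL-13, to 0.83 for Il1b. Differences were negative in 28 members and positive in 13, where 49.6% of all genes were positive, with a median of −0.09 on the log2 scale, against −0.0019 over all genes. Of the 29 receptors 21 were negative, with a median log2 difference of −0.14. No member had groups that did not overlap, which 0.586% of all genes had in the higher direction and 0.467% in the lower. No gene of the 13 lists of cell type markers was called either. T and NK cell marker sums were 170 to 396 in canagliflozin ovaries and 215 to 471 in 12-month controls, and macrophage sums were 2569 to 5079 in canagliflozin ovaries and 2431 to 6125 in 12-month controls.

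Il6st, the signal-transducing chain for IL-6, IL-11 and related cytokines, had the smallest p of the receptors. Its values were 1679, 1815, 1591, 1876 and 1978 in canagliflozin ovaries, against 2163, 2201, 1738, 2169 and 2289 in 12-month controls. Every canagliflozin value lay below 4 of the 5 control values, and the groups overlapped only through 12-month control replicate 3, at 1738. The log2 difference was −0.24 (SE 0.09, unadjusted p = 0.0166, limma adjusted p = 0.473). Il17rd, an IL-17 receptor family member that also restrains FGF signalling, was next, at 133, 156, 125, 113 and 219 in canagliflozin ovaries and 199, 209, 141, 185 and 208 in 12-month controls. The groups overlapped through canagliflozin replicate 5 and 12-month control replicate 3, and the log2 difference was −0.36 (SE 0.18, limma adjusted p = 0.548).

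Il1b, a ligand made by activated macrophages and neutrophils, had the smallest p of the ligands. It measured 20.7, 62.6, 23.7, 30.7 and 38.03 in canagliflozin ovaries and 28.6, 9.70, 15.6, 21.5 and 19.1 in 12-month controls. Replicate 2 was highest among the treated, and the groups overlapped between 20.7 and 28.6. The log2 difference was 0.83 (SE 0.35, unadjusted p = 0.0328, limma adjusted p = 0.514). Il15, which sustains NK cells and memory T cells, measured 17.04, 28.3, 20.7, 26.8 and 17.01 in canagliflozin ovaries and 14.3, 14.6, 17.4, 15.4 and 26.1 in 12-month controls. Its log2 difference of 0.31 had a 95% interval of −0.25 to 0.87, so that the direction was not resolved with 5 mice a group.

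The abundant receptors Il10rb and Il4ra did not separate the groups either. Il10rb measured 1173, 2062, 2139.9, 3118 and 1156 in canagliflozin ovaries and 1824, 1036, 749, 1601 and 1872 in 12-month controls, so that each group spread widely. Its log2 difference was 0.43, with a 95% interval of −0.22 to 1.08. Il4ra measured 1095, 647, 884, 976 and 733 in canagliflozin ovaries and 1075, 997, 893, 799 and 682 in 12-month controls, with a log2 difference of −0.04 and an interval of −0.43 to 0.35. For both the treated and control values were interleaved.

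Among the abundant ligands, Il16, a chemoattractant that binds CD4, measured 169, 119, 187, 126 and 141 in canagliflozin ovaries and 144, 201, 105, 152 and 147 in 12-month controls, with an interval of −0.39 to 0.39 on the log2 scale. Il34 measured 74.2, 140.0, 152, 190.3 and 98.1 in canagliflozin ovaries and 184, 129, 54.2, 92.3 and 123 in 12-month controls, with an interval of −0.51 to 0.91. Il18 measured 97.4, 162, 127, 159 and 117 in canagliflozin ovaries and 182, 113, 115, 119 and 107 in 12-month controls, with an interval of −0.35 to 0.48. In all 3 ligands the groups overlapped, and for Il18 the highest of the 10 values was a control, replicate 1.

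**Figure D2:**
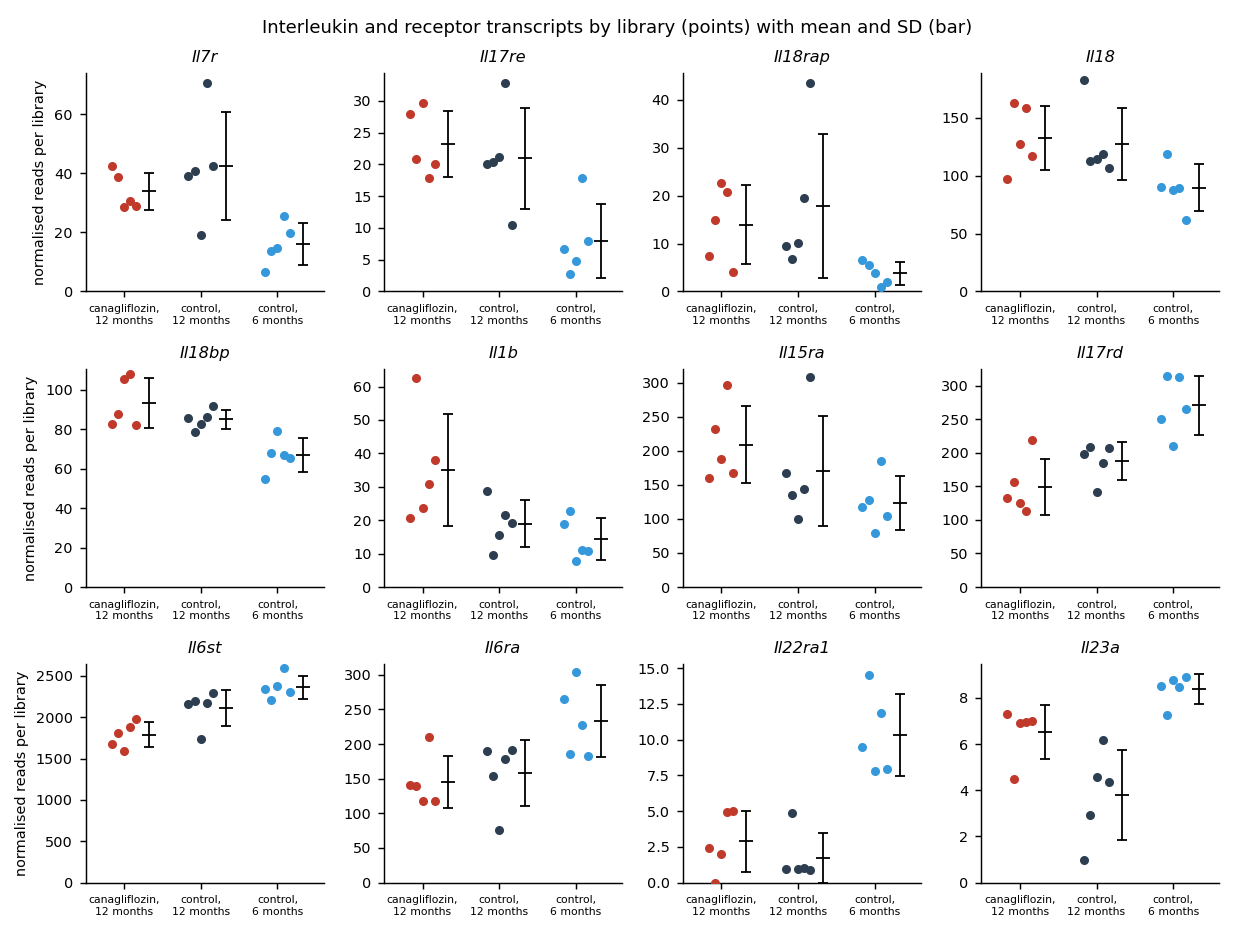
Normalised signal of 12 members in each library, with canagliflozin left, 12-month controls in the middle and 6-month controls right; points are libraries and the bars give the mean and SD (n = 5), drawn no lower than 0. Il7r, Il17re and Il18rap are low in the 6-month controls, with means of 16.03, 7.99 and 3.76, and Il22ra1 is high there, with a mean of 10.3.

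The second comparison follows age, setting 12-month controls against 6-month controls. The receptor chains Il7r, Il17re and Il18rap rose in the older ovaries. They were the called members, 3 of 41 (7.32%). Over all genes 12.4% were called, 5.4% higher and 7.01% lower, so the share of members called was not above the background. At an unadjusted p under 0.05 there were 10 members, 7 higher and 3 lower, against 27.4% of all genes. None of the 9 tested ligands was called, although 6 had positive differences. The 38 members not called ran from −0.71 for Il1rl1, the IL-33 receptor, to 1.02 for Il1rn, the IL-1 receptor antagonist. No 6-month value of Il1rn reached 10, so it passed the low-value filter only through the older groups, where it was higher. Differences were positive in 22 members and negative in 19, where 50.5% of all genes were positive. The median log2 difference of the members was 0.07, against 0.0039 over all genes.

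Il7r, the IL-7 receptor chain on which T cell survival depends, measured 39.1, 40.7, 19.3, 70.8 and 42.5 in 12-month controls and 6.64, 13.6, 14.6, 25.4 and 19.8 in 6-month controls. Only the lowest 12-month value, in replicate 3, fell within the range of the younger mice. The mean was 42.5 ± 18.4 in 12-month and 16.03 ± 7.05 in 6-month controls (SD, n = 5 each), a log2 difference of 1.36 (SE 0.34, limma adjusted p = 0.0150). The call held in every alternative, with adjusted p between 0.0013 and 0.0425. It rests on 7 to 69 reads per library over the 15 libraries.

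Il18rap, the accessory chain that completes the IL-18 receptor, measured 9.55, 6.79, 10.1, 19.5 and 43.4 in 12-month controls and 6.64, 5.45, 3.90, 0.848 and 1.98 in 6-month controls. The groups did not overlap, a pattern shown in the higher direction by 1 of 41 members and by 5.63% of all genes. No 6-month value reached 10, so Il18rap passed the low-value filter only through the older groups, where it was high. Its call and its lack of overlap therefore lend the members no support. It was called with no filter on low values too. The difference on the log2 scale was 1.86 (SE 0.55, limma adjusted p = 0.0365). The call was lost when any of 5 libraries was left out: 12-month control replicates 4 or 5, or 6-month control replicates 3, 4 or 5, with adjusted p of up to 0.0878. Reads ran from 1 to 50 per library.

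Il17re, the chain that gives epithelial cells their response to IL-17C, measured 20.05, 20.4, 21.1, 32.8 and 10.4 in 12-month controls and 6.64, 2.73, 4.87, 17.8 and 7.93 in 6-month controls. The groups overlapped because 12-month replicate 5 was low and 6-month replicate 4 was high. Of the 6-month values only that of replicate 4 reached 10, so Il17re too passed the low-value filter mainly through the older groups. Its call therefore lends the members no support either. The log2 difference was 1.42 (SE 0.38, limma adjusted p = 0.0214), and adjusted p was 0.0601 without 12-month control replicate 4, 0.0582 without 6-month control replicate 2 and 0.0539 without 6-month control replicate 3.

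Some marker genes of other cell types also differed between 12-month and 6-month controls, where 12.4% of all genes were called. The summed level of 13 T and NK cell markers was 215 to 471 in 12-month controls and 148 to 198 in 6-month controls, so the groups did not overlap, and no marker was at 0 in every library. Of the 7 T and NK cell markers tested 2 rose and 5 did not pass, among them Lck at −0.04 and Cd4 at −0.12 on the log2 scale. Those that rose were Cd3g, part of the CD3 complex of T cells, by a log2 difference of 1.84 (limma adjusted p = 0.00543), and the T cell kinase Txk by 1.42 (adjusted p = 0.0324). Among 8 B and plasma cell markers, whose sum was 294 to 1085 in 12-month and 54.5 to 77.2 in 6-month controls, 3 of 5 tested rose. Of 5 tested fat cell markers 4 rose, of 6 fibroblast and stroma markers 3 fell, of 8 endothelial markers 2 fell and of 6 granulosa markers 1 rose. No 6-month value of the fat cell markers Adipoq, Retn and Cidec reached 10. These markers passed the low-value filter only through the older groups, where they were high. The part of the marker genes in the receptor results was not tested.

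Promoters of the receptors called with age and of Il22ra1 are shown so that motifs bound by immune transcription factors can be read beside the values. RefSeq promoters (GRCm38.p6, 250 bases before to 50 after the start) were available for 38 of 49 members. They were searched on both strands for TTCNNNGAA (the GAS element of STAT factors), TGTGGT (RUNX), AGGTCA (ROR half-site), and one spaced motif each of NF-kB and IRF factors. Capitals mark matches, and each promoter is written 5′ to 3′ on the strand of the gene. Il7r lies at chr15:9529827-9530126 on the minus strand, Il18rap at chr1:40515112-40515411, Il17re at chr6:113458521-113458820 and Il22ra1 at chr4:135727909-135728208, all 3 on the plus strand.
Il7r: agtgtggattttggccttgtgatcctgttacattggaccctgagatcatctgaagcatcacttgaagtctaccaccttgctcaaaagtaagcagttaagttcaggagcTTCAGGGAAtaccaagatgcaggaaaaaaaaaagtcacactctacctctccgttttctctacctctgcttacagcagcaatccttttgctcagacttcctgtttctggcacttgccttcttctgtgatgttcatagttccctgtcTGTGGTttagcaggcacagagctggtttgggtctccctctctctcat
Il18rap: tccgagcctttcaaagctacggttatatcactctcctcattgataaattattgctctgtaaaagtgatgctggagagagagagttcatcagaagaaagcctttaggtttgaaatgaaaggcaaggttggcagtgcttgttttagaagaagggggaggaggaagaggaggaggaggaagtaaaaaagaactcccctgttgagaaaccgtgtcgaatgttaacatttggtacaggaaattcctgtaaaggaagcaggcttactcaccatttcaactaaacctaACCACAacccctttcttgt
Il17re: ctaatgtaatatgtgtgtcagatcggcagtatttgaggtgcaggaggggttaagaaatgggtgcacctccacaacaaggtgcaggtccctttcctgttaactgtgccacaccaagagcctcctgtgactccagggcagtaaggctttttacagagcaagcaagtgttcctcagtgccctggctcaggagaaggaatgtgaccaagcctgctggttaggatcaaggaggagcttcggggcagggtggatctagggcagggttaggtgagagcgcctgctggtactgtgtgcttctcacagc
Il22ra1: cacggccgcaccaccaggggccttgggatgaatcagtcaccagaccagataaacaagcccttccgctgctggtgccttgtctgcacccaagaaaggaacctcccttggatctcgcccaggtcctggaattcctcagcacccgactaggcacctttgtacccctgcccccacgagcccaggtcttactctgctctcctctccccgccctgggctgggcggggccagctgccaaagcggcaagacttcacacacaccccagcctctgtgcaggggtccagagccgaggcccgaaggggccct
Il7r held a GAS match, TTCAGGGAA, 142 bases before the start, and a RUNX match 3 bases after it. Il18rap held a RUNX match on the opposite strand, printed as ACCACA, 31 bases after its start. The promoters of Il17re and Il22ra1 held none of the 5 motifs in this window. Of 32851 promoters, 8.3% held the GAS motif, 16.8% RUNX, 16.3% the ROR half-site, 3.44% IRF and 1.63% NF-kB. A match describes the letters and is not a binding site.

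Other chains of the same receptors showed smaller differences. Il18r1, the binding chain of the IL-18 receptor, averaged 38.0 ± 21.2 in 12-month controls and 17.4 ± 5.31 in 6-month controls (SD, n = 5 each), a log2 difference of 0.98 (limma adjusted p = 0.0961), and DESeq2 called it at an adjusted p of 0.0312. Il18 averaged 127 ± 31.2 in 12-month and 89.4 ± 20.4 in 6-month controls, at 0.50 on the log2 scale (adjusted p = 0.107). Il18bp, which captures free IL-18, averaged 85.1 ± 4.97 in 12-month and 66.9 ± 8.51 in 6-month controls, at 0.35 (adjusted p = 0.102). Ligand, binding chain and inhibitor of IL-18 thus had positive differences that did not pass the threshold in limma.

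Il17rd ran the other way. It measured 199, 209, 141, 185 and 208 in 12-month controls and 251, 314, 210.4, 314 and 266 in 6-month controls. Every 12-month value lay below every 6-month value, a pattern shown in the lower direction by 1 of 41 members and by 8.07% of all genes. The log2 difference was −0.52 (SE 0.18, limma adjusted p = 0.0615), and DESeq2 called it at an adjusted p of 0.0299.

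The abundant members and the ligands of smallest p not yet given overlapped between ages. Il17d, a ligand of the IL-17 family, measured 42.01, 104, 82.6, 59.5 and 58.2 in 12-month controls and 43.6, 34.5, 48.7, 66.98 and 63.5 in 6-month controls, a log2 difference of 0.39 (limma adjusted p = 0.341). In canagliflozin ovaries it measured 64.5, 84.9, 61.2, 73.4 and 43.04. The highest Il17d value of all was that of 12-month control replicate 2.

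In 6-month controls Il16 measured 112, 104, 105, 154 and 153, and the 12-month values given above differed from these by 0.24 on the log2 scale, with a 95% interval of −0.15 to 0.63. Il15 measured 14.2, 17.3, 25.3, 33.1 and 16.9 in 6-month controls, with a difference of 12-month controls of −0.24 and an interval of −0.80 to 0.32. All of these groups overlapped.

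Il10rb measured 1490.2, 2068, 2105, 1730.4 and 1138 in 6-month controls, and the difference of 12-month controls was −0.32 on the log2 scale, with an interval of −0.97 to 0.33. Il4ra measured 925, 929, 1022, 1714 and 947 in 6-month controls, with a difference of −0.29 and an interval of −0.68 to 0.10. Its replicate 4 stood far above the other 4 younger mice.

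The 8 members that did not pass the filter were Il23a, Il1a, Il25, Il9r, Il12rb2, Il22ra1, Il11ra2 and Il31ra. Tested with a looser filter, a mean of at least 3 over 20233 genes, Il22ra1 and Il23a were called with age, where 10.6% of all genes were. They are named after their values were seen, and Il22ra1 reached the mean of 3 only through the 6-month controls, where it was high, so its call lends the members no support. Il22ra1, the epithelial chain of the IL-22 receptor, measured 0.955, 4.85, 0.918, 1.03 and 0.868 in 12-month controls and 9.48, 14.5, 7.79, 11.9 and 7.93 in 6-month controls. The groups did not overlap, a pattern shown in the lower direction by 8.07% of the genes that passed the low-value filter. The log2 difference was −2.19 (limma adjusted p = 0.00853), on 1, 5, 1, 1 and 1 reads in the 12-month controls and 10, 16, 8, 14 and 8 in the 6-month controls, and the adjusted p was 0.00790 with no filter on low values.

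In canagliflozin ovaries Il22ra1 measured 2.43, 0, 1.97, 4.96 and 5.004, also below every 6-month value, at a log2 difference of −1.76 (limma adjusted p = 0.0144), where 25.3% of all genes were called. Among genes that passed the low-value filter, 10.4% had groups that did not overlap in this direction. As Il22ra1 reached the mean of 3 only through the 6-month controls, this call and lack of overlap lend the members no support either. Against 12-month controls, treated values overlapped. Il23a, a subunit of IL-23, measured 7.30, 4.47, 6.91, 6.94 and 7.01 in canagliflozin ovaries, 0.955, 2.91, 4.59, 6.15 and 4.34 in 12-month controls and 8.53, 7.27, 8.77, 8.48 and 8.92 in 6-month controls. The 12-month values all lay below the 6-month values, as in 8.07% of the genes that passed the low-value filter, and 4 of the 5 treated values lay above all 12-month values. The difference of 12-month from 6-month controls was −1.09 on the log2 scale (adjusted p = 0.0422), and this call was lost in 13 of 18 alternatives. Between canagliflozin and 12-month controls the unadjusted p of Il23a was 0.0339 and its limma adjusted p 0.542. Reads of Il23a ran from 1 to 10 per library, so that single reads weigh heavily. All 7 markers of surface epithelium were tested, and none was called between 12-month and 6-month controls, where 12.4% of all genes were. Their log2 differences ran from −0.62 to 0.21, and 2 of them were positive. Their part in the Il22ra1 result was not tested.

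A further comparison sets canagliflozin ovaries against 6-month controls, spanning both 6 months of age and the treatment. It shares its 6-month controls with the age comparison and its treated mice with the first, so the values of the 3 are given side by side and none is support for another. The ligands Il1b and Il18, the inhibitor Il18bp and the receptors Il7r, Il15ra, Il17re and Il18rap rose, and the receptors Il6st, Il6ra and Il17rd fell. Called members were 10 of 41 (24.4%), 7 higher and 3 lower, where 28.4% of all genes were called, 13.5% higher and 14.9% lower. The share of members called was close to the background. Differences were positive in 23 members and negative in 18, where 50.8% of all genes were positive. Groups did not overlap in 3 members in the higher direction and in 1 in the lower, where they did so in 8.05% and 10.4% of all genes. The median log2 difference was 0.11 for the members and 0.0097 over all genes.

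Among the ligands, Il1b and Il18 rose. Il1b measured 20.7 to 62.6 in canagliflozin ovaries, listed above, and 18.96, 22.7, 7.79, 11.02 and 10.9 in 6-month controls. On the log2 scale the difference was 1.23 (SE 0.35, limma adjusted p = 0.0172), with overlap between canagliflozin replicate 1 and 6-month replicate 2. The 12-month controls averaged 18.9 ± 7.02 for Il1b, against 14.3 ± 6.27 in 6-month controls (SD, n = 5 each), a log2 difference of 0.40 (adjusted p = 0.502). Every canagliflozin value of Il18, at least 97.4, lay above all but 1 of the 6-month values, which were 90.1, 119, 87.7, 89.02 and 61.5. Its log2 difference was 0.57 (adjusted p = 0.0404), and leaving out any 1 of 7 libraries took the adjusted p over the threshold, to at most 0.106: canagliflozin replicates 2, 3 or 4, or 6-month control replicates 1, 3, 4 or 5.

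Il18bp rose with them. It measured 82.8, 87.9, 106, 108 and 82.1 in canagliflozin ovaries and 54.98, 68.1, 78.9, 66.98 and 65.4 in 6-month controls, with no overlap. This was a log2 difference of 0.47 (SE 0.13, limma adjusted p = 0.0157).

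The receptors that rose were Il17re, Il7r, Il18rap and Il15ra. Il17re measured 27.99, 20.9, 29.6, 17.8 and 20.02 in canagliflozin ovaries, against the 2.73 to 17.8 of the 6-month controls. The groups only just parted, at 17.8 for canagliflozin replicate 4 and 6-month replicate 4, and the log2 difference was 1.62 (SE 0.38, limma adjusted p = 0.00506). Because Il17re passed the low-value filter mainly through the older groups, its call and its lack of overlap here lend the members no support. Il7r measured 42.6, 38.7, 28.6, 30.7 and 29.02 in canagliflozin ovaries, all above the highest 6-month value of 25.4. Its log2 difference was 1.13 (SE 0.34, adjusted p = 0.0200), and the adjusted p was 0.0514 without 6-month control replicate 1.

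Il18rap measured 7.30, 14.9, 22.7, 20.8 and 4.003 in canagliflozin ovaries, of which replicate 5 at 4.00 lay within the 6-month range. As it passed the low-value filter only through the older groups, its call here lends the members no support either. Its difference was 1.60 on the log2 scale (SE 0.55, limma adjusted p = 0.0397), lost on leaving out any 1 of 6 libraries (canagliflozin replicates 2, 3 or 4, or 6-month control replicates 3, 4 or 5). Il15ra, which presents IL-15 to neighbouring cells, measured 161, 232, 188, 296 and 168 in canagliflozin ovaries and 118, 128, 78.9, 186 and 104 in 6-month controls. The treated values were mostly higher, with overlap through 6-month replicate 4. The log2 difference was 0.78 (SE 0.28, adjusted p = 0.0440), and it was the least stable call, lost in 14 alternatives, among them edgeR (adjusted p = 0.0548) and the removal of canagliflozin replicates 2, 3 or 4, 12-month control replicates 1, 2 or 4 or 6-month control replicates 1, 2, 3 or 5.

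The receptors that fell were Il6st, Il17rd and Il6ra. Every canagliflozin value of Il6st, at most 1978, was below the lowest of the 6-month values, which were 2338, 2213, 2378, 2590.1 and 2299. This gave a log2 difference of −0.40 (SE 0.09, limma adjusted p = 0.00343). In 12-month controls Il6st lay between, with a mean of 2112 ± 215, and its log2 difference from 6-month controls was −0.17 (adjusted p = 0.242). Il17rd averaged 149 ± 42.1 in canagliflozin ovaries and 271 ± 44.1 in 6-month controls (SD, n = 5 each), a log2 difference of −0.88 (SE 0.18, adjusted p = 0.00173). Canagliflozin replicate 5, at 219, was the only treated value inside the 6-month range.

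Il6ra, the binding chain for IL-6, measured 141, 140.0, 118, 210.2 and 118 in canagliflozin ovaries, 190.0, 154, 76.2, 178 and 191 in 12-month controls and 265, 185, 304, 228 and 182 in 6-month controls. Its difference from 6-month controls was −0.68 on the log2 scale in canagliflozin ovaries (SE 0.24, limma adjusted p = 0.0452) and −0.60 in 12-month controls (adjusted p = 0.117). The first call was lost without any 1 of 9 libraries, with adjusted p of up to 0.108: canagliflozin replicates 1, 2, 3 or 5, 12-month control replicates 2 or 4, or 6-month control replicates 1, 3 or 4. Il27ra, another partner of gp130, lay at the threshold, with a log2 difference of −0.59 and an adjusted p of 0.0502 in limma, 0.0454 in edgeR and 0.0284 in DESeq2. Of the 10 calls, Il17rd, Il17re and Il6st held in every alternative, with the limit given above for Il17re, which passed the low-value filter mainly through the older groups.

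**Figure D3:**
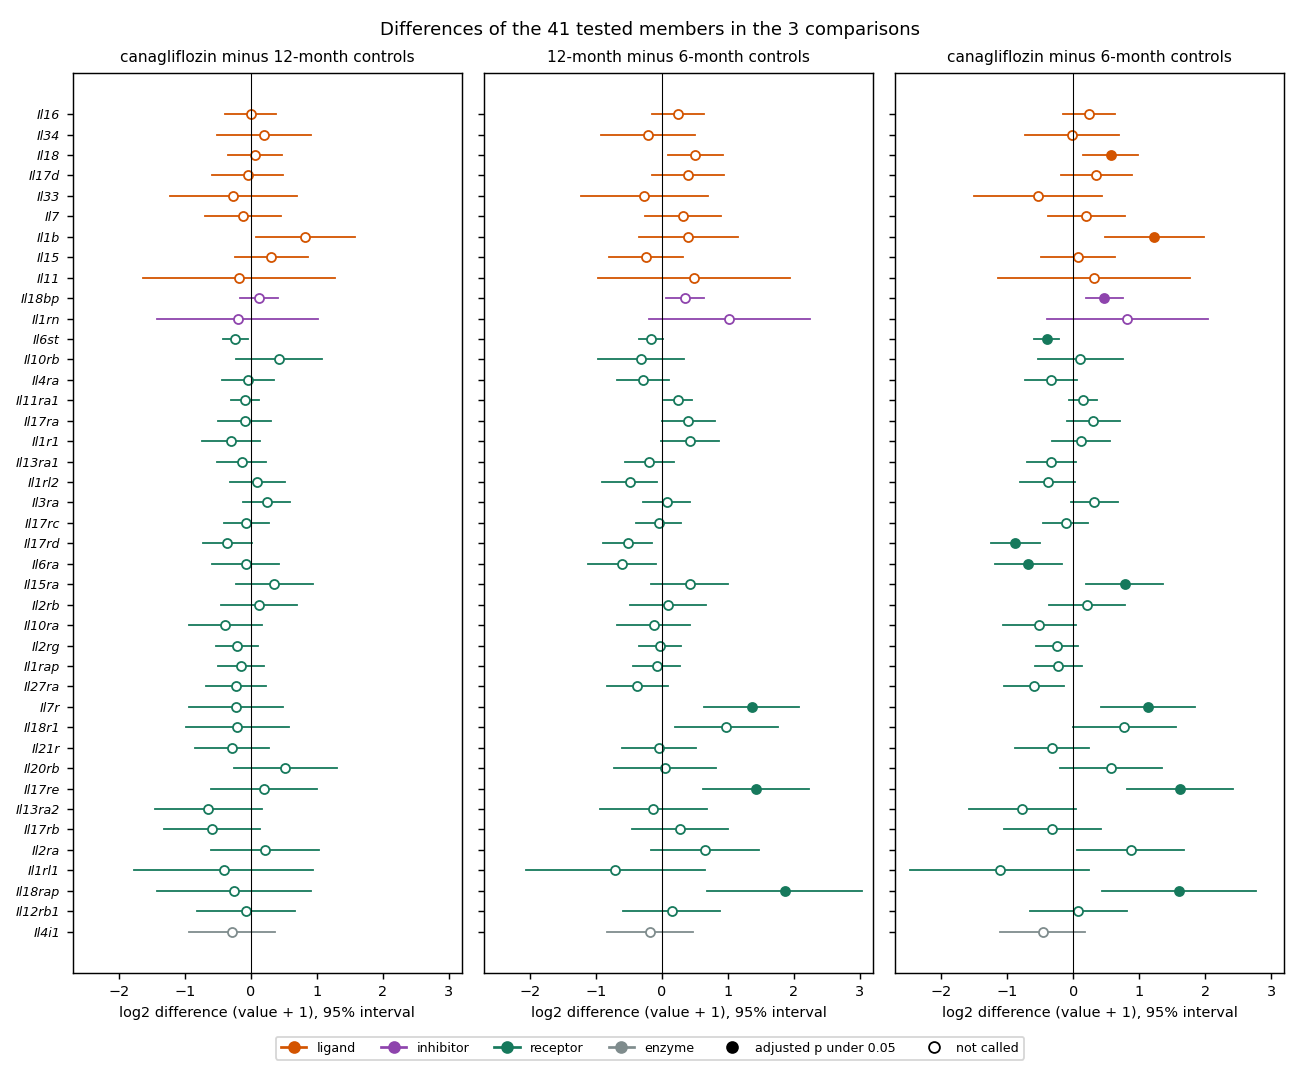
Log2 differences (value + 1) of the 41 tested members with 95% intervals in the 3 comparisons, coloured by class, with filled points for an adjusted p under 0.05. No point is filled for canagliflozin against 12-month controls, 3 receptors are filled for age and 10 members for canagliflozin against 6-month controls.

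Calls by receptor family are set against all genes, of which 0.00569% were called in canagliflozin against 12-month controls, 12.4% in 12-month against 6-month controls and 28.4% in canagliflozin against 6-month controls. Of 11 tested IL-1 family genes, 0 were called in canagliflozin against 12-month controls, 1 rose in 12-month against 6-month controls and 4 rose in canagliflozin against 6-month controls. Of 8 tested genes of the common gamma chain group, the counts were 0, 1 higher and 2 higher. Of 5 tested genes of the gp130 group, they were 0, 0 and 2 lower, and of 6 tested IL-17 family genes 0, 1 higher, and 1 higher with 1 lower. The 3 tested genes each of the IL-10 and of the IL-4 and IL-13 groups had no call in any comparison. The age call of the IL-1 family was Il18rap, which was also among its 4 calls against 6-month controls. The higher calls of the IL-17 family were both Il17re. Il18rap passed the low-value filter only, and Il17re mainly, through the older groups, so these calls lend the families no support. Il17re and Il17rd, both of the IL-17 receptor family, moved in opposite directions between canagliflozin ovaries and 6-month controls.

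Partner genes of interleukin signalling were taken from 5 lists of 64 genes, of which 63 were in the table and 60 were tested. In canagliflozin against 12-month controls 0 were called. The smallest p belonged to Tyk2, a JAK family kinase, with 755 ± 61.8 in canagliflozin ovaries and 619 ± 40.5 in 12-month controls (SD, n = 5 each). The groups did not overlap, at 0.29 on the log2 scale (limma adjusted p = 0.326). Nfkbiz, an NF-kB cofactor induced by IL-17 and IL-1, averaged 225 ± 29.9 in canagliflozin ovaries and 161 ± 42.0 in 12-month controls (0.51, adjusted p = 0.473), and Csf2ra, the GM-CSF receptor chain, 817 ± 69.4 and 663 ± 66.2 in the same order (0.30, adjusted p = 0.473).

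Between 12-month and 6-month controls 3 of 60 partners rose and 1 fell (6.67%), where 12.4% of all genes were called. Jak1, a kinase bound to receptors of the gp130 and common gamma chain groups, measured 4188, 3906, 4198, 3715 and 5047 in 12-month controls and 2789, 3361, 3046, 2998 and 3327 in 6-month controls. All 12-month values were above all 6-month values, at a log2 difference of 0.44 (SE 0.09, limma adjusted p = 0.00747). Csf2ra averaged 663 ± 66.2 in 12-month and 469 ± 83.9 in 6-month controls (0.51, adjusted p = 0.00814), and Tab3, an adaptor of the IL-1 pathway kinase TAK1, 269 ± 33.03 in 12-month and 197 ± 24.8 in 6-month controls (0.45, adjusted p = 0.0260). Csf1r, the receptor of Il34 and of Csf1, fell: 512, 343, 176, 285 and 417 in 12-month controls and 647, 566, 740.2, 875 and 609 in 6-month controls, a log2 difference of −1.06 (SE 0.24, adjusted p = 0.0105). The groups did not overlap.

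Csf1r is also a macrophage marker. The sum of 12 macrophage markers was 2431 to 6125 in 12-month controls and 4175 to 7376 in 6-month controls, and the groups overlapped. Of these 12 genes 2 fell, Csf1r itself and Adgre1 (−1.31 on the log2 scale, limma adjusted p = 0.00508), so 1 of the other 11 did. Their part in the Csf1r result was not tested. The ligand Il34 itself measured 184, 129, 54.2, 92.3 and 123 in 12-month controls and 139, 174, 185, 91.6 and 76.3 in 6-month controls, with overlap, at a log2 difference of −0.22 with a 95% interval of −0.93 to 0.50.

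Against 6-month controls, canagliflozin ovaries had 5 partners higher and 8 lower of 60 (21.7%), where 28.4% of all genes were called. Higher were Csf2ra (0.81 on the log2 scale, limma adjusted p = 0.000169), Nfkbiz (0.98, adjusted p = 0.00149), Jak1 (0.40, adjusted p = 0.00569), the oncostatin M receptor Osmr (0.65, adjusted p = 0.0382) and Stat4, which carries IL-12 signals (1.11, adjusted p = 0.0459). No 6-month value of Stat4 reached 10, so it passed the low-value filter only through the older groups. Lower were Csf1r (−1.49, adjusted p = 0.000537) and its other ligand Csf1 (−0.54, adjusted p = 0.0181), and the inflammasome sensor Nlrp3 (−1.22, adjusted p = 0.00821). Lower too were Irak4 (−0.53, adjusted p = 0.0248) and Tab2 (−0.26, adjusted p = 0.0355) of the MyD88 pathway, Socs7 (−0.36, adjusted p = 0.0266), Stat3 (−0.51, adjusted p = 0.0458), the main STAT below gp130, and the CNTF receptor Cntfr (−1.04, adjusted p = 0.0325). Nfkbiz measured 214, 186, 268, 234 and 224 in canagliflozin ovaries and 168, 111, 90.6, 107 and 101 in 6-month controls, with no overlap. Nlrp3 measured 8.52, 10.4, 18.7, 16.9 and 7.01 in canagliflozin ovaries and 30.3, 23.6, 25.3, 37.3 and 25.8 in 6-month controls, again with no overlap.

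Cell type markers were counted in this comparison too, where 28.4% of all genes were called. It had T and NK cell marker sums of 170 to 396 in canagliflozin ovaries and 148 to 198 in 6-month controls, with 3 of 7 tested markers higher. Macrophage marker sums were 2569 to 5079 in canagliflozin ovaries and 4175 to 7376 in 6-month controls, with 3 of 12 lower. Of 5 tested B and plasma cell markers 3 were higher, of 5 fat cell markers 4 were higher and 1 lower, and of 8 endothelial markers 3 were higher and 2 lower. The fat cell markers Adipoq, Retn and Cidec passed the low-value filter only through the older groups. Of 6 fibroblast and stroma markers 4 were lower, of 6 granulosa markers 1 was higher, and 1 of 7 oocyte markers was lower. The innate lymphoid and mast cell list had 3 tested genes, Gata3, Rora and Kit, of which 1, Kit, was lower. Its members Fcer1a, Ms4a2 and Klrg1 were too low to be tested, and Cpa3, Mcpt4 and Tpsb2 were not in the table. The part of all these marker genes in the member results was not tested.

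**Figure D4:**
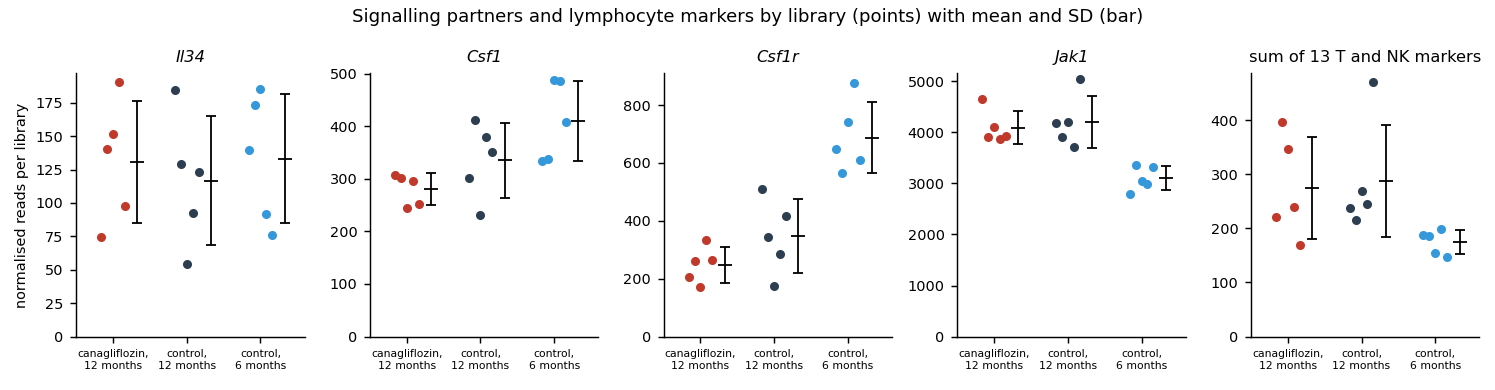
Normalised signal of Il34, Csf1, Csf1r and Jak1 and the sum of 13 T and NK cell markers in each library, with canagliflozin left, 12-month controls in the middle and 6-month controls right; points are libraries and bars give the mean and SD (n = 5). Csf1r is highest in the 6-month controls, with a mean of 687, and the T and NK cell sum runs from 148 to 198 there, below all 12-month controls and overlapping with canagliflozin.

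Within groups the members differed widely in spread. Il6st was among the steadier ones, with a coefficient of variation of 8.62% in canagliflozin ovaries, 10.2% in 12-month and 5.95% in 6-month controls. Il10rb varied by 42.1% in canagliflozin ovaries, 35.3% in 12-month and 23.8% in 6-month controls. Il11, a gp130 cytokine, varied by 155% in canagliflozin ovaries, where it measured 58.4, 5.96, 4.93, 3.97 and 4.003, high in replicate 1 and low in the other 4.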

How the data were processed

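The 15 libraries are 5 mice in each of 3 groups. Per the labels' protocols, RNA of 1 ovary per mouse was poly(A)-selected and made into directional libraries. The authors deposited 1 signal per gene and library; its values show gene reads scaled by a library size factor. The submitters' processing notes name Partek 11.0 and mm39. No source used here gives the aligner, the annotation or the use of strand. Low values were whole multiples of 1 step, so that reads were recovered, with at least 99.9911% of values whole within 0.1 read. In 3 libraries (canagliflozin replicates 4 and 5, 6-month control replicate 5) the step was too near 1 to be told from rounding. The read depth stated in the labels is far lower, and the difference was not resolved.

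The signal is not a count, so log2(value + 1) was tested with limma 3.58.1 (R 4.3.3, trend and robust) in 1 fit of all 15 libraries. A gene entered if 5 or more libraries reached a value of 10 (17569 of 24656), and calls are Benjamini-Hochberg adjusted p under 0.05 over all of them. A fold change on this scale understates low genes. Alternatives were edgeR 4.0.16 and DESeq2 1.42.0 on recovered reads, other scalings, pseudocounts of 0.5 and 5, other filters, a replicate block, and leaving out each library. The test was checked on simulated data. Mice were separate animals, and no pair of libraries of the same group agreed within counting noise.

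Members and lists were chosen with earlier results of these data known. Values per library are given for called members, for the 2 ligands and 2 receptors of smallest p in each comparison and for the 3 ligands and 3 receptors of highest mean. Partners named are those called, or else the 3 of smallest p. Exon lengths and overlaps came from the GENCODE M21 annotation of GRCm38, matched by Ensembl identifier for all 49 members. That is another build than the authors', and no coordinates were carried over. Promoter sequences are from RefSeq (GRCm38.p6).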

Additional observations from a re-analysis of the deposited data

Results flagged for a closer look

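In 147 groups of 5 libraries (49 members in 3 groups), 15 had a highest or lowest value far from the other 4, with a gap above 0.710 of the range of the group. This was 10.2% of groups, where chance gives about 1 in 20 for normally distributed values. The signals were not transformed here and several are low, so that rate is only a rough guide and the excess does not show unusual libraries. Of the 15 flagged groups, 6 were in canagliflozin, 4 in 12-month control and 5 in 6-month control libraries.

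Among ligands, Il11 was high in canagliflozin replicate 1 at 58.4, the other 4 lying between 3.97 and 5.96. Il18 was high in 12-month control replicate 1 at 182. Il15 was high in 12-month control replicate 5 at 26.1. Il23a was low in canagliflozin replicate 2 at 4.47, and in 6-month control replicate 2 at 7.27. Il1a was high in 6-month control replicate 3 at 9.74. The inhibitor Il1rn was low in 6-month control replicate 1 at 2.84.

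Among receptors, Il6st was low in 12-month control replicate 3 at 1738, the value that made it overlap with canagliflozin libraries. Il4ra was high in 6-month control replicate 4 at 1714, and Il13ra1 in 6-month control replicate 3 at 427. In canagliflozin libraries Il1r1 was high in replicate 1 at 952, Il27ra in replicate 2 at 76.0, Il2rb in replicate 3 at 249 and Il6ra in replicate 4 at 210.2. Il22ra1 was high in 12-month control replicate 2 at 4.85, still below every 6-month value.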

How the results depend on the processing

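Counts that moved by over 1.5 times are given first. For canagliflozin against 12-month controls 1 gene was called by limma, 9 with edgeR, 59 with DESeq2, 2 with no filter, 0 with only the 2 groups compared, 3 with the replicate block, 23 with edgeR on the 12 libraries whose reads are whole by rule and 2 with edgeR and the looser filter. It ran from 0 to 37 over the 15 fits that each left out 1 library, with 37 without canagliflozin replicate 5. Members called stayed at 0 in all of these. For 12-month against 6-month controls 3 members became 5 with DESeq2, 5 with the looser filter, 1 with edgeR on 12 libraries and 5 with edgeR and the looser filter, and ran from 1 to 4 over left-out libraries, with 1 without 12-month control replicate 4. For canagliflozin against 6-month controls 10 members became 4 with edgeR on 12 libraries and ran from 6 to 11 over left-out libraries, with 6 without canagliflozin replicate 3 and without 6-month control replicate 1. Over all genes 4982 calls became 3954 with edgeR on 12 libraries and ran from 3930 to 5320 over left-out libraries. The edgeR settings on 12 libraries and with the looser filter were added after the data were seen.

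Replicate numbers did not pair the mice: 3 of 15 same-number correlations of deviations exceeded 0.1 (−0.298 to 0.249). With the replicate block members called were 0, 3 and 8 in the 3 comparisons. Between ages Il18rap was lost (adjusted p = 0.0799) and Il17rd gained (0.0370), and between canagliflozin and 6-month controls Il18rap (0.0809) and Il6ra (0.0560) were lost. Over all genes 2126 and 4912 were called in these comparisons with 6-month controls.

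Reversed signs were all of members not called in the comparison concerned, though some of them were called in another. In canagliflozin against 12-month controls edgeR on 12 libraries gave 0.098 for Il16 and 0.024 for Il17d, and in canagliflozin against 6-month controls −0.026 for Il10rb and −0.025 for Il15. Over left-out libraries the log2 difference between canagliflozin and 12-month controls ran from −0.12 to 0.11 for Il16, −0.21 to 0.11 for Il17d, −0.016 to 0.38 for Il17re, −0.016 to 0.20 for Il18, −0.50 to 0.13 for Il18rap, −0.046 to 0.39 for Il34, −0.14 to 0.055 for Il4ra and −0.32 to 0.0084 for Il6ra. Between 12-month and 6-month controls it ran from −0.41 to 0.029 for Il34, and between canagliflozin and 6-month controls from −0.19 to 0.17 for Il34, −0.049 to 0.24 for Il15 and −0.090 to 0.27 for Il10rb. The causes were not tested. Depth limits the low members most: Il22ra1 rests on 0 to 16 reads per library.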
